A study of Arabidopsis thaliana with 12 samples.

Results

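NdhS, NdhN and CRR41 are nuclear genes for the chloroplast NADH dehydrogenase-like (NDH) complex of Arabidopsis thaliana. They were read from probes that name exactly 1 gene. The array held 3439 probes, of which 692 name 1 gene, and those stand for 691 genes in all. The genes were picked by function, by a choice that knew the values of the contrast described here, and their differences are therefore a description with no test. All plants were wild type of the ecotype C24. One group was treated with DCMU while growing in light that excites photosystem I, called PSI light here, and the other grew in PSI light without it. Each group has 6 array columns of total RNA. The labels state no dose or length of the DCMU treatment, no plant age and no tissue. Of 13 root marker genes listed by locus, 0 had a probe of their own, so the make-up of the tissue was not checked.

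The NDH complex sits in the thylakoid membrane. It passes electrons from reduced ferredoxin back to plastoquinone and so takes part in cyclic electron flow around photosystem I and in chlororespiration. Some of its subunits are encoded in the chloroplast genome. The nucleus encodes other subunits, assembly factors, chaperones and proteins that edit the chloroplast ndh transcripts. NdhS is the subunit at which ferredoxin docks. NdhN belongs to the stromal arm, subcomplex A. CRR41 is a stromal factor needed to assemble that arm and is not a subunit of the finished complex. DCMU (diuron) blocks electron transfer from photosystem II to plastoquinone.

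The deposited values were linear intensities relative to the brightest probe of each column, which stood at 100. Column medians were 0.386 to 0.504 with DCMU and 0.542 to 0.584 in PSI light, so the columns were quantile normalised and turned to log2. Columns numbered 1 and 2, 3 and 4, and 5 and 6 of a group correlated at a Spearman rho of 0.975 to 0.991, and the remaining pairings within a group at 0.920 to 0.959. Each such pair was averaged and counted as 1 replicate, which leaves n = 3 per group. The labels do not call these pairs duplicates. They also name no separate plants or cultures, so every p-value rests on a spread between samples that may be purely technical.

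The differences of the 3 genes were of unlike size and were not tested against each other. CRR41 was 3.27-fold higher with DCMU and NdhS 1.25-fold higher, while NdhN stood at 1.03-fold. Their log2 differences, PSI light + DCMU minus PSI light, were 1.71 (SE 0.21) for CRR41, 0.33 (SE 0.11) for NdhS and 0.05 (SE 0.13) for NdhN. The assembly factor had the widest difference, and the subunits NdhS and NdhN had small ones. In limma's model of the pair means, 1 of the 3 passed an adjusted p of 0.05, CRR41, in the higher direction. Among all 3439 probes 43.1% passed, 18.1% higher and 25% lower. Because the genes were chosen with this contrast known, nothing is read from that count. The 6 normalised columns of each group did not overlap for 2 of the 3, CRR41 and NdhS, both higher with DCMU, as for 43.5% of all probes (18.5% higher, 25% lower). The RNA was from whole samples, so fewer cells of a type and less RNA per cell cannot be told apart.

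**Figure D1:**
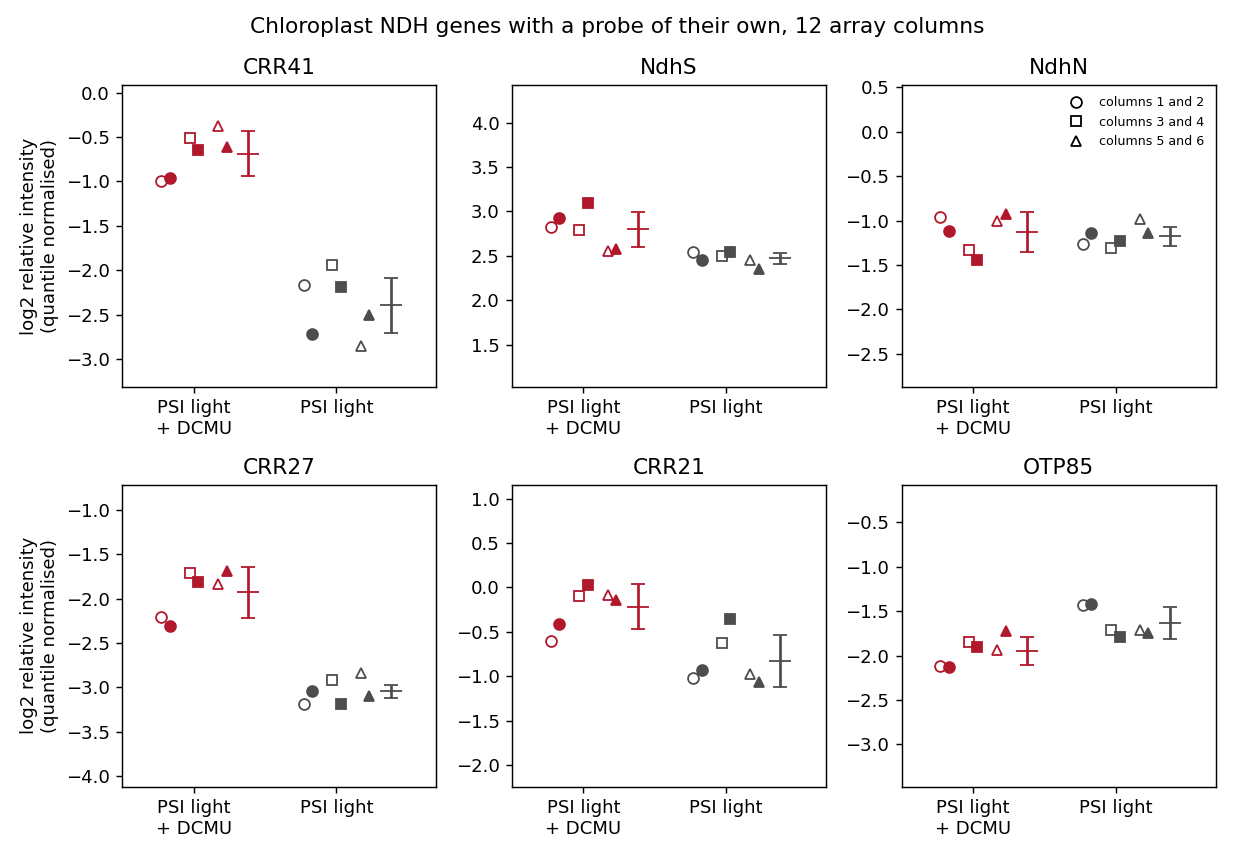
Quantile-normalised log2 relative intensity of the 6 NDH genes with a probe of their own, for PSI light + DCMU (left) and PSI light (right). Symbols mark the pair of columns, open symbols the odd-numbered column, and the bar at the side of each group the mean ± SD of the 3 pair means. Every panel spans the same log2 range. CRR41 and CRR27 lie clearly higher with DCMU, NdhS lies just above its PSI light values, and the groups of NdhN, CRR21 and OTP85 overlap.

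CRR41 was the assembly gene among the 3. Its deposited relative intensity in columns 1 to 6 was 0.498, 0.504, 0.605, 0.556, 0.601 and 0.502 with DCMU, against 0.235, 0.151, 0.300, 0.256, 0.126 and 0.156 in PSI light. All 6 DCMU columns were above all 6 PSI light columns, and the gap between the groups was 0.198. The DCMU columns were close to each other, while the PSI light columns differed among themselves, highest in columns 3 and 4. After normalisation CRR41 averaged -0.69 ± 0.26 with DCMU and -2.39 ± 0.31 in PSI light on the log2 scale (SD, n = 3 each). The difference between same-numbered pairs of columns was 1.46, 1.48 and 2.18. It was thus widest for columns 5 and 6, where the PSI light level was lowest. The 2 columns of a pair differed by 0.04 to 0.56, less than the difference between the groups. CRR41 was at the floor set for dim values in 0 of 12 columns. Its PSI light values came near that floor, down to -2.85 after normalisation against a floor of -3.19, both in log2. Where an offset replaced the floor, the difference was 1.28, or 2.43-fold.

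CRR41's place within the column does not depend on how arrays are scaled to each other. It stood at the 49.2nd to 69.5th percentile of all probes with DCMU, and at the 10.7th to 23.9th in PSI light. Of the 692 probes with 1 gene, 28 had a larger log2 difference. The nearest 100 probes in the array's numbering had a median difference of 0.21. After a running median over the numbering was subtracted, CRR41 stood at 1.53. Under the 30 other settings for which it had a value, its difference stayed between 1.28 and 1.89. Some of them altered only the test and could not change the fitted difference.

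NdhS carries the ferredoxin-docking role. Its relative intensity in columns 1 to 6 was 6.72, 7.28, 7.32, 8.40, 6.19 and 6.39 with DCMU, against 6.21, 5.58, 5.65, 5.79, 5.60 and 5.03 in PSI light. The groups overlapped on this scale by a single value, since column 5 with DCMU lay below column 1 in PSI light. After normalisation they no longer overlapped, but the gap was 0.01 on the log2 scale, between 2.55 in the lowest DCMU column and 2.54 in the highest PSI light columns. NdhS averaged 2.80 ± 0.20 with DCMU and 2.47 ± 0.06 in PSI light (SD, n = 3 each). The DCMU pairs were more spread out, with columns 5 and 6 at 2.57 and the others at 2.88 and 2.95. Without columns 5 and 6 of the DCMU group the difference was 0.43, and without columns 3 and 4 of that group it was 0.25.

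The difference between same-numbered pairs was 0.39, 0.43 and 0.17 for NdhS, all positive. Its size depended on the processing: 0.32 with no scaling, 0.54 after the correction for position in the numbering and 0.67 with median centring. Its nearest 100 probes in that numbering had a median difference of -0.27, so NdhS was higher among neighbours that tended to be lower. NdhS was among the brightest probes, at the 97.9th to 98.7th percentile with DCMU and the 97.4th to 97.9th in PSI light. Quantile normalisation gives each rank a common value in every array, so the normalised value of NdhS reflects its rank alone. That rank, counted from the brightest probe, was 46 to 73 with DCMU and 74 to 91 in PSI light. An array's brightness depends on the probe as well as the transcript, and no level is compared here between genes.

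NdhN, of the stromal arm, showed no separation. Its relative intensity in columns 1 to 6 was 0.510, 0.461, 0.364, 0.343, 0.379 and 0.402 with DCMU, against 0.472, 0.507, 0.463, 0.488, 0.542 and 0.483 in PSI light. On this scale 5 of the 6 DCMU columns lay below all PSI light columns, and column 1 lay above all but column 5 of PSI light. After normalisation NdhN averaged -1.13 ± 0.23 with DCMU and -1.18 ± 0.11 in PSI light (SD, n = 3 each), and the groups overlapped. Differences between same-numbered pairs were 0.16, -0.12 and 0.09, so they did not share a sign. The direction also depended on the scaling. It was -0.28 with no scaling and -0.18 with equal totals, against 0.08 with median centring and 0.15 with cyclic loess. Those settings also move all probes, whose median difference was -0.32, -0.23, 0 and 0.02 in the same order and -0.06 after quantile normalisation. An SE of 0.13 leaves room for a modest difference either way.

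**Figure D2:**
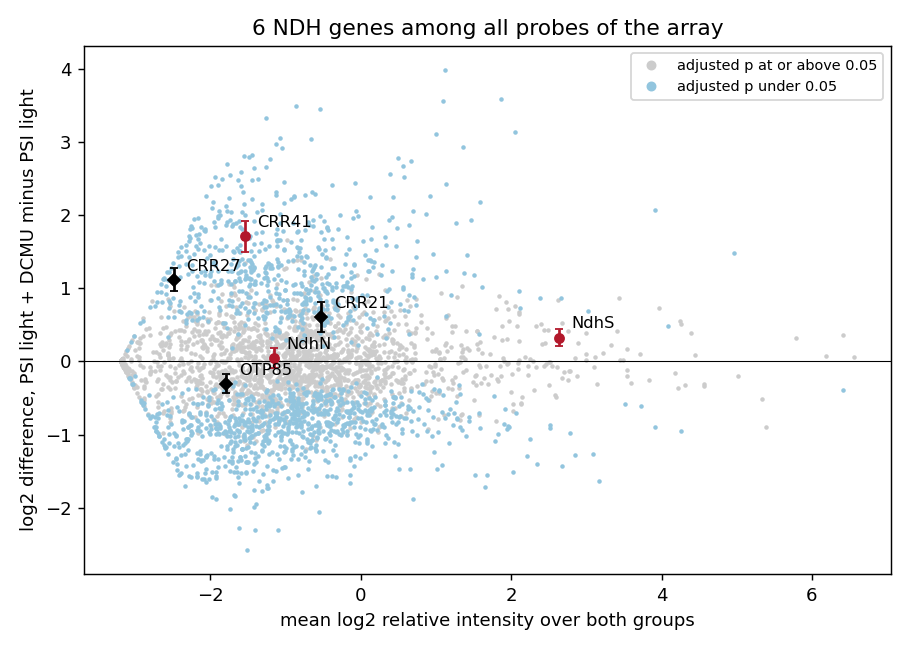
Log2 difference (PSI light + DCMU minus PSI light) against mean log2 relative intensity for 3439 probes, blue where limma's adjusted p was under 0.05. Red circles are CRR41, NdhS and NdhN and black diamonds are CRR27, CRR21 and OTP85, each with its SE. CRR41 lies in the upper part of the cloud at 1.71, NdhS at the bright end at 0.33 and NdhN close to 0.

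The other NDH genes on the array are set beside the 3. The list that found them was also made with earlier results of these data known. Their p-values, counts and median are therefore no independent evidence on NDH genes as a set. This list, by locus, held 38 nuclear genes for NDH subunits, assembly, ndh transcript editing and the antenna proteins that link NDH to photosystem I. It found 6 with a probe of their own, the 3 above and CRR27, CRR21 and OTP85; 1 more was present only on a probe that names several genes and is not reported. Of CRR27, CRR21 and OTP85, 1 rose, 0 fell and 2 did not pass in limma's model of pair means adjusted over all probes, where 18.1% of probes passed higher. Their median log2 difference was 0.61, with 2 of the 3 above 0. Over all probes it was -0.06, with 1459 of 3439 above 0.

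CRR27, the chaperonin subunit Cpn60beta4 that folds the NDH subunit NdhH, rose with DCMU. Its relative intensity in columns 1 to 6 was 0.234, 0.216, 0.295, 0.278, 0.219 and 0.239 with DCMU, against 0.0851, 0.124, 0.160, 0.114, 0.127 and 0.0998 in PSI light. All 6 DCMU columns were above all 6 PSI light columns, also after normalisation, as for 18.5% of all probes. Its log2 difference was 1.12 (SE 0.16), or 2.17-fold, with an adjusted p of 0.00608 from limma. Both levels were dim, and 2 of the 6 PSI light columns were at the floor, which in part sets this fold. With the floor at the 10th percentile the difference was 0.67 and still passed. It passed in all 30 other settings that gave it a value, at 0.67 to 1.29.

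CRR21 and OTP85 are pentatricopeptide repeat proteins needed to edit the chloroplast ndhD transcript, and neither passed. CRR21 averaged -0.22 ± 0.26 with DCMU and -0.83 ± 0.30 in PSI light (SD, n = 3 each), a difference of 0.61 (limma adjusted p = 0.0702). Columns 3 and 4 in PSI light, at -0.62 and -0.35, were above the other PSI light columns. The groups overlapped through column 4, since column 3 lay just below the lowest DCMU column at -0.60. Of the 6 fits without 1 pair of columns, 1 passed, that without columns 3 and 4 in PSI light (0.79, limma adjusted p = 0.0377). The adjusted p of those 6 fits reached 0.178. Of the 12 fits without 1 column, 2 passed. These left out column 4 in PSI light (0.66, limma adjusted p = 0.0389) or column 1 with DCMU (0.65, limma adjusted p = 0.0488). OTP85 averaged -1.94 ± 0.16 with DCMU and -1.64 ± 0.18 in PSI light, a difference of -0.31 (limma adjusted p = 0.12). Its pair differences were -0.70, -0.12 and -0.10, so columns 1 and 2 made most of it. The groups of OTP85 overlapped after normalisation but not in relative intensity, which was 0.206 to 0.274 with DCMU and 0.292 to 0.414 in PSI light. On that scale the column medians were lower with DCMU too, at 0.386 to 0.504 against 0.542 to 0.584. The share of all probes without overlap there was not counted, so nothing is read from it. The 2 editing factors thus had fitted differences of opposite sign, in tests that did not pass.

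Genes of neighbouring processes were sparsely covered. None of 10 listed genes for cyclic electron flow and chlororespiration outside NDH had a probe of its own. Of 33 nuclear genes listed for the thylakoid complexes, not all of them for subunits, 5 had one. Of these 0 rose, 1 fell and 4 did not pass in limma's model, where 18.1% of all probes passed higher and 25% lower. AT1G76450 (listed as PPD1), for a protein with a PsbP domain, fell by 1.60 (adjusted p = 0.00373), and PSBY, for a photosystem II subunit, stood at 0.61 (adjusted p = 0.0561). Mitochondrial complex I, which is related to NDH, had 1 of 21 listed genes on the array, CI24, at -0.61 (limma adjusted p = 0.149). The median difference was 0.09 over the 5 genes of the thylakoid list. These counts are too small to set NDH genes against other complexes.

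Likeness to other genes was measured as the root mean square (RMS) difference between 2 probes over the 12 normalised columns, each probe centred on its own mean. The candidates were the 545 other single-gene probes above the floor in every column. For CRR41 the closest was SPL (SPOROCYTELESS, a regulator of sporangium development), at an RMS difference of 0.23, against a median of 1.02 over all candidates. AT1G51080, at 0.27, and AT5G09820, for a plastid fibrillin-type protein, at 0.29, followed. Their log2 differences were 1.53, 1.85 and 1.49. The measure includes the difference between the groups, so probes with a difference near that of CRR41 come out close to it. Probes with a small difference come out far, and shared regulation was not tested. In the reference gene order AT1G51080 lies close to CRR41, with 1 gene between them. AT1G51110, the gene directly next to CRR41 on the other side, was looked at after its value was seen and stood at 0.05 (limma adjusted p = 0.923).

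For NdhS the closest was THIC, a chloroplast enzyme of thiamine synthesis, at an RMS difference of 0.10, followed by AT2G35450 at 0.11 and AT4G09620 at 0.13. Their log2 differences were 0.42, 0.27 and 0.32. For NdhN the closest were DAL1 at 0.13, AT3G09050 at 0.14 and AT4G17260, for a lactate dehydrogenase, at 0.15. Small distances are easily reached by any probe with a small difference, and the median over all candidates was 0.45 for NdhS and 0.42 for NdhN. Within the NDH genes, NdhS and NdhN were 0.31 apart, CRR41 and NdhS 0.76, and CRR41 and NdhN 0.91. CRR41 and CRR27 were 0.42 apart, with 22 candidates closer to CRR41 than that.

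**Figure D3:**
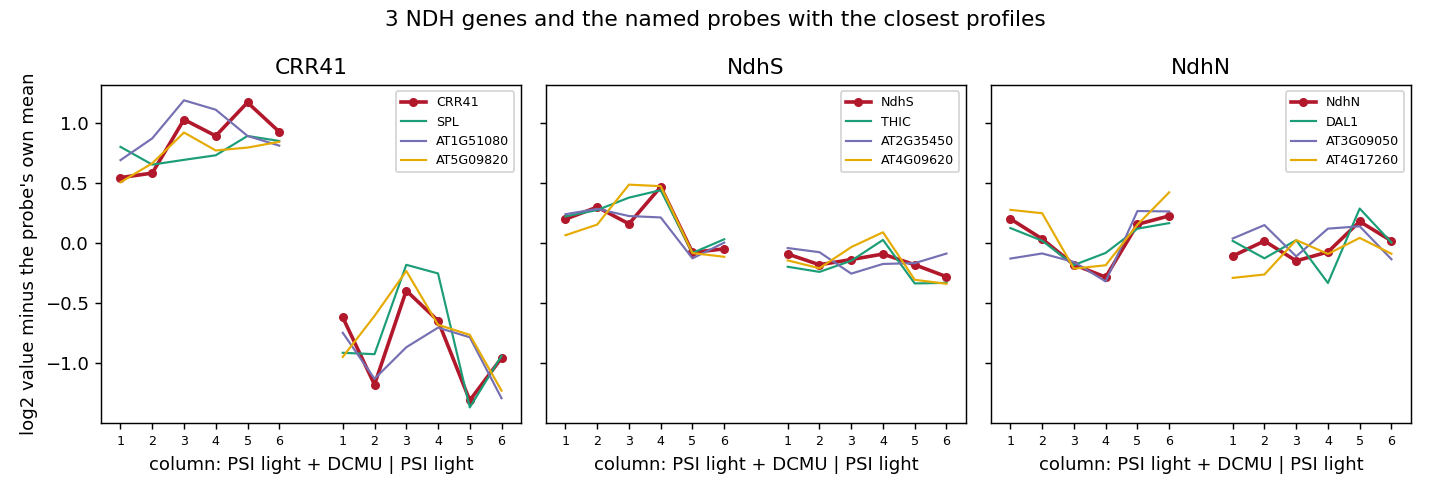
Normalised log2 value minus the probe's own mean in columns 1 to 6 of PSI light + DCMU (left of each panel) and 1 to 6 of PSI light (right), for CRR41, NdhS and NdhN in red and the 3 named probes closest to each. CRR41 and its neighbours step down between the DCMU and PSI light columns, and NdhS and NdhN and theirs stay near 0 on the shared axis.

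**Figure D4:**
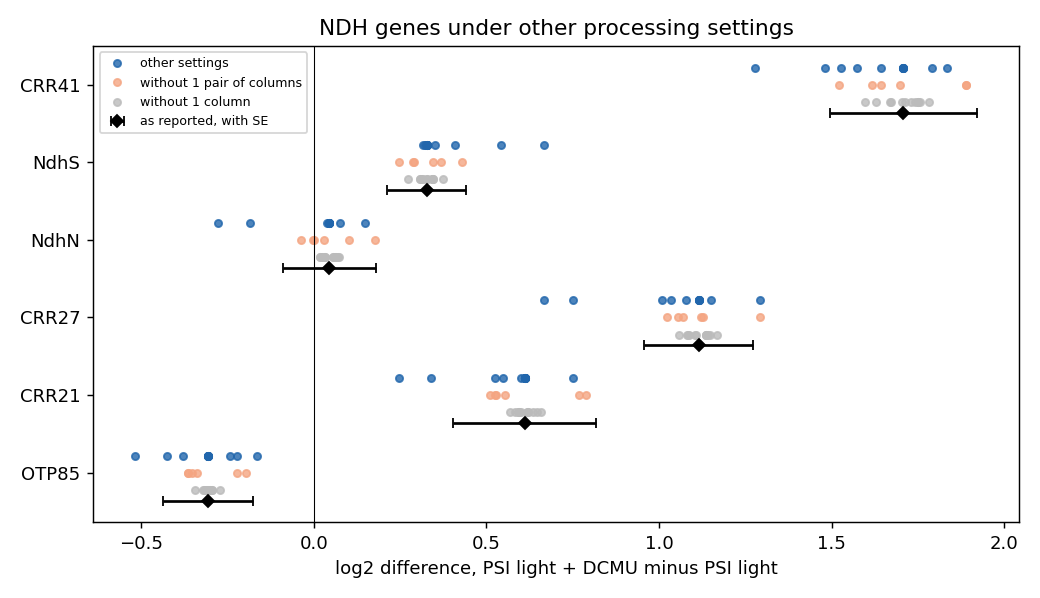
Log2 difference (PSI light + DCMU minus PSI light) of the 6 NDH genes under each other setting (blue), without 1 pair of columns (orange) and without 1 column (grey), with the reported value and its SE as a black diamond. CRR41 and CRR27 lie right of 0 throughout, at 1.28 to 1.89 and 0.67 to 1.29, and NdhN falls on both sides of 0.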

How the data were processed

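The deposited table held 1 linear intensity per probe and column, which the authors gave relative to the brightest probe of each column. For image analysis, background steps and genome build the labels give nothing, and no coordinates are reported. Intensities were quantile normalised, raised to a floor at the 5th percentile of positive values (log2 -3.19), and log2 transformed. Pair means of columns were compared with limma 3.58.1 in R 4.3.3 over 3439 probes. Adjusted p-values are Benjamini-Hochberg values over all probes, called under 0.05. The model was tested on simulated data. Plots used matplotlib 3.10.9 under Python 3.11.15. Arrays have no read depth, and their number limits the precision.

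Probes were named by the platform's annotation, with symbols and loci brought up to the TAIR10.1 reference through the gene identifier: 692 name 1 gene, 870 several and 1877 none. Of the 692, 2 matched no gene there and kept the platform's name, DAL1 among them. The genes, the tests, the alternatives and the 5 lists were chosen with earlier results of these data known. The lists were the NDH list, cyclic electron flow and chlororespiration, thylakoid complexes, mitochondrial complex I and root markers. Named by rule were the 3 genes, every measured gene of the first 2 lists and the 3 closest probes to each of the 3. From each other list at most 2 genes were named, by smallest p. AT1G51110, next to CRR41, was named outside this rule, after its value was seen.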

Additional observations from a re-analysis of the deposited data

How the results depend on the processing

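Other settings changed sizes more than directions. The differences of CRR41, NdhS and NdhN are a description here too. CRR41 was above 0 in all 30 alternatives run on it, and 1 moved it by more than the spread between replicates, the offset in place of the floor (1.28). NdhS was above 0 in 31 and moved to 0.67 with median centring and 0.54 with the position correction. NdhN was above 0 in 26 and below in 4, and moved to -0.28 with no scaling and -0.18 with equal totals. Without 1 pair of columns CRR41 stood at 1.52 to 1.89, NdhS at 0.25 to 0.43 and NdhN at -0.04 to 0.18. The cause of these moves was not tested. Of CRR27, CRR21 and OTP85, 1 passed as reported. There were 3 with the 12 columns as samples or with pairs as a random block, 2 with no scaling, with cyclic loess or with the position correction, and 1 to 2 without 1 column or 1 pair of columns. CRR21 passed in 10 of 31 alternatives and OTP85 in 3 of 30.

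Over all probes 1483 passed (624 higher, 859 lower), 798 when probes dimmer than the median were left out, where fewer were tested and NdhN, CRR41, CRR27 and OTP85 gave no value, and 1151 to 1487 without 1 column or 1 pair. The share of calls that were lower was 57.9% as reported, 73.4% with no scaling, 69.1% with equal totals and 47.9% with the position correction. With a replicate block, 1394 probes passed over pair means and 2224 over 12 columns. CRR27 and CRR21 passed higher in both and OTP85 in neither. Limma's adjusted p was 0.0497 for CRR21 over pair means and 0.0646 for OTP85 over 12 columns. The block could not change the differences of CRR41, NdhS and NdhN, since each number occurs in both groups alike. Across the groups, deviations of same-numbered column pairs correlated at 0.099 to 0.306. Each of the 12 columns, and each of the 6 pair means, correlated best with its own number in the other group. The labels do not explain this, and whether the numbers mark matched samples was not tested. The reported model did not pair by number, while the replicate block did. Dim values are limited by the floor, at which 167 probes stood in all 12 columns.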
